A study of Mus musculus with 31 samples.

Results

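The binding sites of NIPBL, the protein that loads cohesin onto DNA, were compared between activated primary mouse B cells and an activated mouse B cell line by chromatin immunoprecipitation and sequencing (ChIP-seq). The comparison used 5 of the 31 samples in the series, chosen by their labels: 3 NIPBL libraries of stimulated splenic B cells and 2 of stimulated CH12F3 cells. Each of the 5 came with a broad peak list on the mouse build mm9, as did 26 of the 31 samples. The splenic cells were mature B cells, not passaged, treated for 48 h with anti-CD40 and IL-4. CH12F3 is a mouse B lymphoma line used as a model of switching to IgA. Its cells, at passages 8 to 10, were treated for 24 h with anti-CD40, IL-4 and TGF-β. Titles of the CH12F3 samples read CH12F3NCdel, a name that the labels do not expand. All 5 samples were AID-deficient, that is, without the enzyme that starts class switch recombination, and all carry the strain label C57BL/6. The same antibody, Bethyl A301-779A, was used throughout. Cell source, the addition of TGF-β and the length of the treatment differ together between the groups, so their parts cannot be told apart, and CH12F3 is a single line. The labels do not say whether the replicates were separate animals or cultures, so the p-values rest on the scatter among these libraries alone, and that scatter may be technical.

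Cohesin is a ring-shaped complex that extrudes loops of chromatin, and NIPBL both places it on DNA and drives its movement. Loading is known to be frequent at active promoters and enhancers, from where cohesin travels until it is stopped, often at sites bound by CTCF. In B cells the immunoglobulin heavy chain (IgH) locus is folded in this way, which brings a switch region chosen by cytokine-induced transcription next to the donor switch region. Rad21, a subunit of cohesin itself, was mapped in other libraries of the same cell sources after the same treatments. It marks where the complex is found rather than where it is loaded. The passage labels of the stimulated CH12F3 Rad21 libraries run to higher passages than those of the NIPBL libraries.

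Peaks were compared after each list was reduced to its 20000 strongest peaks, ranked by the authors' -log10 p, and coverage was read in consecutive 10 kb bins. A bin's level in a library is the share of the bin, in percent, that lies under such peaks, so it says how much of a bin belongs to the strongest sites of that library. Of 60262 bins covered in at least 1 of the 5 libraries, 2911 were covered in all 5, 3593 in all 3 splenic libraries and neither CH12F3 library, and 954 in both CH12F3 libraries and no splenic one. In the fit with limma over 16999 bins covered in 2 or more libraries, 3454 bins were higher in stimulated spleen (20.3% of those tested) and 225 were higher in stimulated CH12F3 (1.32%) at an adjusted p under 0.05, 21.6% in either direction. The median difference was 11.2 points among the former and -3.03 points among the latter, against 2.24 points over all tested bins. Of the 3454, 2831 had no top peak in either CH12F3 library, and of the 225, 186 had none in any splenic library. The groups did not overlap in any called bin. Over all tested bins they did not overlap with spleen above in 31.5% and with CH12F3 above in 8.31%. Differences of 20 points or more were found in 407 of the bins higher in spleen and in 8 of those higher in CH12F3.

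**Figure D1:**
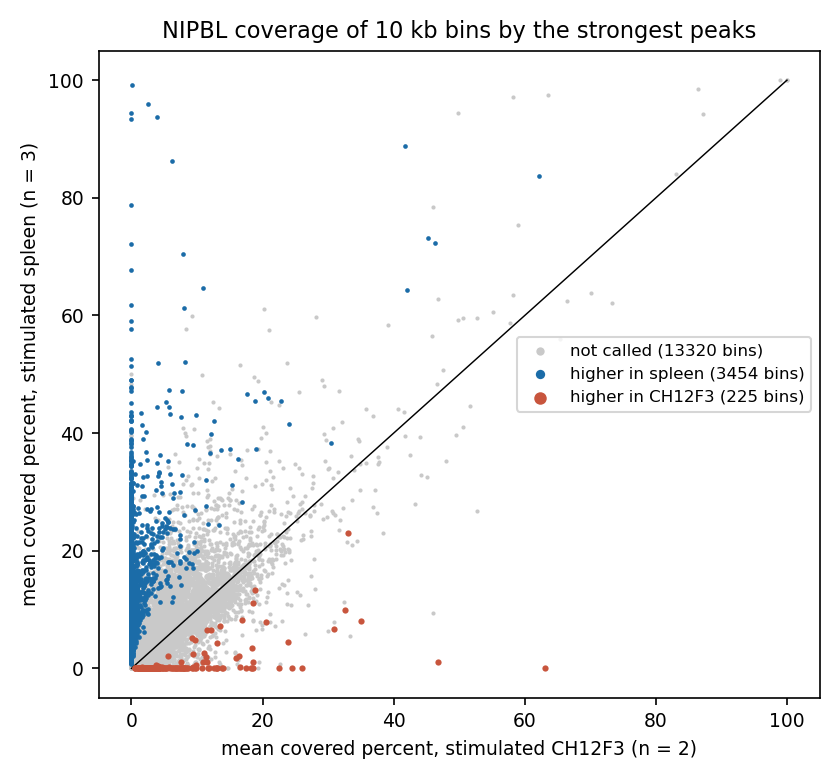
Mean percent of each tested 10 kb bin covered by the 20000 strongest NIPBL peaks in stimulated CH12F3 (horizontal, n = 2) and in stimulated spleen (vertical, n = 3). Each point is a bin, blue or red where limma called it and grey where it did not, and the line marks equal coverage. Most of the 3454 bins higher in spleen lie on or near the vertical axis, where CH12F3 coverage is 0, and the 225 bins higher in CH12F3 lie near the horizontal axis.

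The excess on the splenic side went with wider top peaks, so the widths belong beside the counts. The 20000 strongest peaks covered 12.5, 14.2 and 14.6 Mb in the splenic libraries and 7.70 and 5.13 Mb in the CH12F3 libraries. Their median width was 442, 532.5 and 552 bp in spleen and 68 and 51 bp in CH12F3. Peaks of 51 bp, the smallest width in the lists, made up 22.6%, 19.3% and 19.1% of the top peaks in spleen and 44.7% and 50.3% in CH12F3. Peaks of 500 bp and more made up 47.7%, 51.02% and 51.98% against 24.4% and 15.3%. No splenic library reached the CH12F3 range in any of these measures. The two-sided exact permutation p was 0.1 for each, the smallest that 3 against 2 libraries can give, and 0.15 after adjustment over the 27 list measures tested. The number of deposited peaks did not separate the groups: it was 890499, 1191061 and 1332862 in spleen and 1321413 and 1082979 in CH12F3. When every library contributed its strongest peaks up to the same covered length of 5 Mb, 656 bins were higher in spleen and 542 in CH12F3, so that spleen's share of the calls was 54.8%. With all deposited peaks the counts were 127 and 117, and with peaks of a -log10 q of at least 5 the split turned round, to 151 and 3855. That filter kept unlike numbers of peaks, 79409, 39531 and 148800 in spleen and 357742 and 199956 in CH12F3. The part of these numbers in the split was not tested. Equal length also kept unlike numbers of peaks, 5000, 4494 and 4382 in spleen and 9445 and 17532 in CH12F3. Of the 3454 bins, 1086 were tested at equal length and 438 were called in the same direction. Of the 225 bins, 142 were tested and 131 called. The remaining bins did not enter that fit, so they could not be called there.

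**Figure D2:**
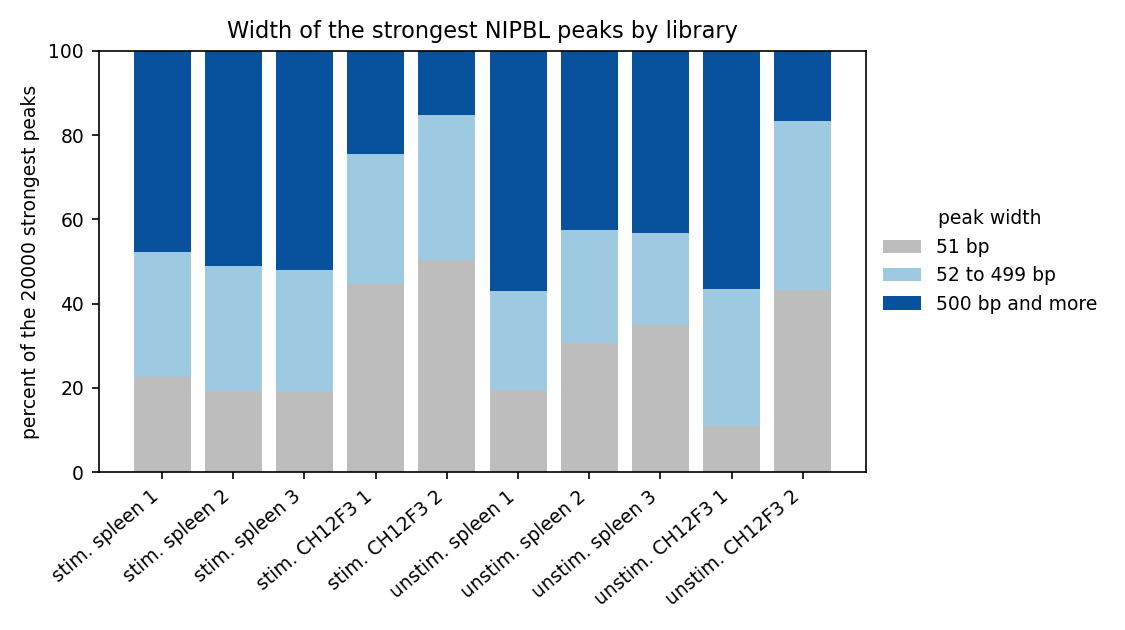
Width of the 20000 strongest NIPBL peaks in each library, as the percent of peaks of 51 bp, of 52 bp to under 500 bp and of 500 bp and more. Stimulated CH12F3 has 44.7% and 50.3% of peaks at 51 bp, against 19.1% to 22.6% in stimulated spleen. The unstimulated libraries do not split by cell source.

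The wide peaks were the ones that recurred between libraries. Among all top peaks, 49.1% ± 0.469 (SD over 6 ordered pairs of libraries) of those in a splenic library overlapped a top peak of another splenic library by 1 base or more, against 14.6% ± 0.0778 (SD over 2 ordered pairs) between the CH12F3 libraries. Between the cell sources the share was 20.4% ± 3.96 of splenic peaks in CH12F3 and 20.3% ± 3.81 of CH12F3 peaks in spleen (SD over 6 pairs each). Peaks moved by 1 Mb overlapped in 0.7% to 1.85% on average. The pairs share libraries and are given as a description. For peaks of 500 bp and more the shares were 86.7% ± 2.01 within spleen, 66.5% ± 18.6 within CH12F3, 35.8% ± 7.28 for splenic peaks in CH12F3 and 88.5% ± 1.21 for CH12F3 peaks in spleen. Most wide CH12F3 sites thus lay on a splenic top site, and most wide splenic sites lay on no CH12F3 top site. Peaks of 51 bp recurred in 0.108% to 0.242% on average. The moved peaks were of all widths, and no moved value was made for 51 bp alone. A bin covered in 1 library alone was the most common case, with 19582 bins in a splenic library and 23681 in a CH12F3 library.

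When the deposited lists were used whole, coverage at the called bins drew together. At the 3454 bins higher in spleen, the median over bins of the group mean was 20.5% in spleen and 20.8% in CH12F3, and in 566 of them the splenic libraries were all above both CH12F3 libraries. At the 225 bins higher in CH12F3 the medians were 12.9% in spleen and 20.0% in CH12F3, and in 97 the CH12F3 libraries were both above. Most bins called higher in spleen therefore held weaker CH12F3 peaks that ranked outside the strongest 20000. Such cover was common in the whole lists, where 219428 of the 255863 bins covered in any of the 5 libraries (85.8%) were covered in all 5. How often the groups were apart in the whole lists over all tested bins was not counted. CH12F3 replicate 2 was called against a control, as its peak names show, whereas the other 4 lists name none; no label says whether one calling procedure served all 5. Without that library 1754 bins were higher in spleen and 140 in CH12F3, and without CH12F3 replicate 1 the counts were 3144 and 68. Without 1 of the splenic libraries, 548 to 561 bins were higher in CH12F3. Where 1 CH12F3 library remained, its spread was taken to be that of the splenic ones.

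The IgH locus lies on chromosome 12, and its part in mm9 was read as the 40 bins of chr12:114300001-114700000. RefSeq, in the later build GRCm38.p6, places Ighm and Ighd at the higher coordinates, then Ighg3, Ighg1 and the Ighg2 genes, and Ighe and Igha at the lower ones. The mm9 bin of each gene was not worked out. Top NIPBL peaks covered 23 of the 40 bins in at least 1 of the 5 libraries, and 15 were tested by limma. All splenic libraries were above both CH12F3 libraries in 10 of the 15 tested bins, against 31.5% of bins tested over the genome. CH12F3 was above spleen in 1 of the 15, against 8.31%. limma called 5 bins higher in spleen and 1 higher in CH12F3, 33.3% of the 15 in the first case against 20.3% over the genome, and 1 of 15 in the other against 1.32%. The exact permutation test gave p = 0.1 at best, which is 0.288 after adjustment over the 23 bins.

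The highest splenic coverage in the region was in the bin at chr12:114660001-114670000. Its coverage was 47.1%, 45.0% and 29.9% in the splenic libraries and 0% in both CH12F3 libraries. The mean was 40.6% ± 9.39 (SD, n = 3) and the difference of 40.6 points had an SE of 6.05 and a limma adjusted p of 0.0142. The strongest splenic peak there, in replicate 3, ran over chr12:114661677-114663779 with a fold enrichment of 18.2 as given by the authors. Cells without stimulation showed the same split, with 54.4%, 29.4% and 42.5% in spleen and 6.14% and 0% in CH12F3. The full deposited lists gave 49.3% ± 4.92 in spleen (SD, n = 3) and 42.0% ± 3.12 in CH12F3 (SD, n = 2), so CH12F3 had NIPBL peaks in this bin, which did not rank among its strongest.

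Another bin, chr12:114570001-114580000, separated the cell sources with all deposited peaks as well. Top peaks covered 41.7%, 49.8% and 24.5% of it in spleen and none of it in CH12F3. The difference was 38.7 points with an SE of 8.24 and a limma adjusted p of 0.0403. All deposited peaks covered 58.3%, 68.8% and 66.1% in spleen against 15.3% and 12.1% in CH12F3. No unstimulated library of either source had a top peak there, and all deposited peaks covered 18.8% ± 7.83 in unstimulated spleen (SD, n = 3) and 15.1% ± 9.93 in unstimulated CH12F3 (SD, n = 2). Stimulated spleen thus stood above the other 3 groups in this bin. The neighbouring bin at chr12:114560001-114570000 had top-peak coverage of 20.2%, 5.63% and 15.9% in spleen and 0% in CH12F3, which did not pass (limma adjusted p = 0.141). All deposited peaks covered it to 43.4% ± 7.68 in spleen and 6.91% ± 0.559 in CH12F3. For Rad21, no stimulated library had a top peak in the chr12:114570001-114580000 bin, but all deposited Rad21 peaks covered 36.8% ± 11.8 of it in spleen (SD, n = 3) and 0.128% ± 0.255 in CH12F3 (SD, n = 4). The full Rad21 lists differ in length, covering 22.2, 173 and 157 Mb in spleen and 20.5 to 49.4 Mb in CH12F3, and the part of this in the difference was not tested.

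Higher in CH12F3 was the bin at chr12:114490001-114500000. CH12F3 had 9.24% and 14.1% there and the 3 splenic libraries 0%, a difference of -11.7 points (SE 1.73, limma adjusted p = 0.0139). The peaks ran over chr12:114491789-114492712 in replicate 1 and chr12:114491526-114492935 in replicate 2. Unstimulated CH12F3 had 12.4% and 13.1% in the same place and unstimulated spleen 0% in all 3 libraries. With all deposited peaks the values were 29.9% ± 4.56 in spleen and 40.9% ± 6.85 in CH12F3. The remaining 3 bins called higher in spleen were those starting at 114370001 (19.1% against 0%), 114460001 (31.2% against 15.3%) and 114480001 (18.0% against 0%). Their limma adjusted p-values were 0.0204, 0.0254 and 0.0444. Of the 23 covered bins, 114460001 was the one with a top NIPBL peak in all 5 libraries, and Rad21 top peaks covered it in all 7 stimulated libraries too, at 20.6% to 33.7% in spleen and 10.9% to 20.8% in CH12F3. At equal covered length, 114460001 turned to -5.90 points, and with all deposited peaks 114480001 turned to -4.33 points.

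**Figure D3:**
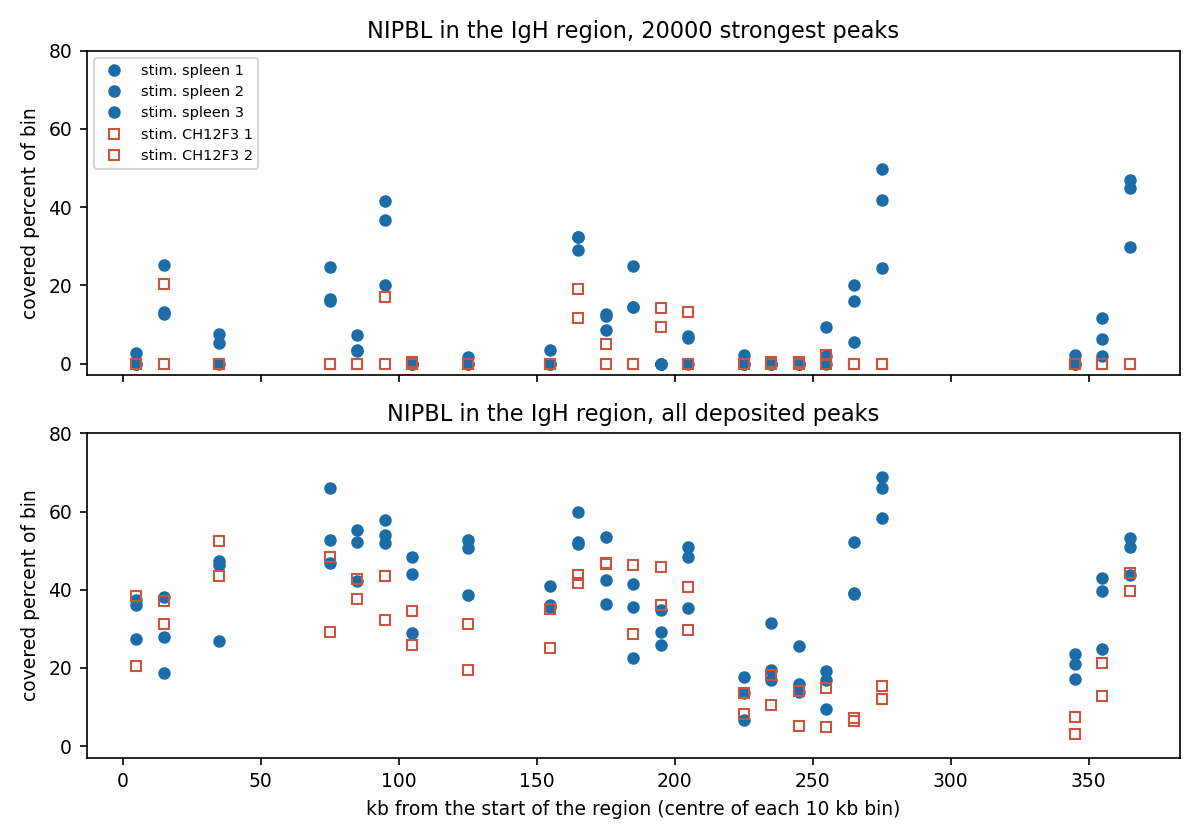
Percent of each 10 kb bin of the IgH region covered by NIPBL peaks in the 3 stimulated splenic libraries (blue circles) and the 2 stimulated CH12F3 libraries (open red squares), over distance from the start of the region in kb. The upper panel uses the 20000 strongest peaks and the lower all deposited peaks. In the lower panel the groups stay far apart in the bin at 114570001 (64.4% against 13.7%), whereas in the rightmost one, at 114660001, they come close (49.3% against 42.0%).

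Across the genome, the 10 largest differences toward spleen lay on the Y chromosome (4 bins), in neighbouring bins of chromosome 11 (2), on chromosome 8 (2) and in 1 bin each of chromosomes 7 and 10. By size, the first was chr11:3070001-3080000, covered to 100%, 97.6% and 100% in spleen and 0.05% and 0% in CH12F3. Deposited peaks of any rank left the bin 99.2% covered in spleen and 86.9% ± 11.1 in CH12F3. A top peak of CH12F3 replicate 1, chr11:3051854-3070005 (18152 bp), ended just inside this bin. Further toward the chromosome start, the bins at chr11:3030001 and chr11:3040001 had 72.7% or more in all 5 libraries. Without stimulation the first bin had 84.95%, 54.4% and 56.9% in spleen and 58.6% and 0% in CH12F3. Rad21 top peaks covered 86.4% ± 7.06 of it in stimulated spleen (SD, n = 3) and 0%, 100%, 0% and 100% in stimulated CH12F3. The bin at chr7:52090001-52100000 had 88.3%, 93.7% and 99.3% in spleen and 7.93% and 0% in CH12F3. The difference there was 89.8 points (SE 4.68, limma adjusted p = 0.00602). In splenic replicates 2 and 3 this bin was taken up by single broad peaks of 10249 and 11062 bp, starting at 52090634 and 52088865, with authors' fold enrichments of 13.6 and 16.2. All deposited peaks covered it to 94.1% ± 5.23 in spleen and 59.5% ± 11.6 in CH12F3. Unstimulated spleen had 30.7%, 26.1% and 20.98% and unstimulated CH12F3 0% in both. None of the 7 stimulated Rad21 libraries had a top peak in it.

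The bin at chr10:79610001-79620000 had 69.2%, 74.4% and 59.8% in spleen and 0% in CH12F3 (difference 67.8 points, SE 4.92, limma adjusted p = 0.00602). Here all deposited peaks came closer, at 83.6% ± 1.89 and 72.1% ± 7.30. Among the CH12F3 libraries without stimulation, replicate 1 had 60.3% in this bin and replicate 2 had 0%. On chromosome 8, the bin starting at 19970001 had 76.9%, 82.1% and 100% in spleen against 0% and 12.2% in CH12F3, and at equal covered length its difference turned to -1.53 points.

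The Y chromosome gave 4 of the 10 largest differences toward spleen and the longest run. Neighbouring called bins filled chr Y from 2850001 to 2900000, 5 bins with a mean of 70.8% ± 4.54 in spleen (SD, n = 3) and 0% in CH12F3. Of 10 tested Y bins, 8 were called higher in spleen, against 20.3% of all tested bins. The splenic top lists held 13, 14 and 16 Y peaks and each CH12F3 top list held 1. All deposited lists held 285, 405 and 538 Y peaks in spleen and 75 and 60 in CH12F3. The Y share of top peaks was 0.0717% in stimulated and 0.04% in unstimulated spleen and 0.005% in both CH12F3 states. The stimulated CH12F3 Rad21 lists also held 1 Y peak each among their top peaks. In the libraries used here, more than 1 top Y peak was thus found in splenic lists alone, and stimulated splenic Rad21 replicate 2 had 1 as well. How many Y chromosomes the cells carried was not measured.

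Other long runs toward spleen were chr8:19960001-20000000 (4 bins, 51.7% against 2.96%), chr4:88400001-88440000 (4 bins, 34.7% against 0%), chr Y from 2770001 to 2800000 (3 bins, 31.8% against 0%) and chr11:74970001-75000000 (3 bins, 28.3% against 1.52%). In the chromosome 4 run the splenic libraries had 34.1%, 29.5% and 40.5%, and unstimulated CH12F3 replicate 1 had 28.5% where replicate 2 had 0%. The 3454 bins fell into 3166 runs, of which 265 held 2 or more bins and 19 held 3 or more, so that most called bins stood alone. The 225 bins fell into 221 runs, 4 of them of 2 bins.

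Toward CH12F3, chr8:125950001-125960000 stood first. Both CH12F3 libraries had high coverage, 61.6% and 64.5%, and all 3 splenic libraries had 0%. The difference of -63.1 points had an SE of 1.597 and a limma adjusted p of 0.00602. In CH12F3 replicate 1 the bin held peaks at chr8:125949639-125954447 and chr8:125956986-125958697, the latter with an authors' fold enrichment of 27.7 and rank 56 in its list. Replicate 2 had a peak at chr8:125956875-125958764 with a fold enrichment of 22.1 and rank 53. Unstimulated CH12F3 had 68.7% and 59.4% and unstimulated spleen 0% in all 3 libraries, so the 4 CH12F3 libraries stood apart from the 6 splenic ones. Rad21 top peaks covered 44.3%, 23.6%, 26.1% and 0% of the bin in stimulated CH12F3 and 0% in stimulated spleen. With all deposited NIPBL peaks, spleen reached 55.0% ± 3.67 and CH12F3 68.6% ± 1.75, still without overlap. With the bin before it, it made 1 of the 4 runs of 2 bins toward CH12F3, the one with the highest mean, at 33.2% against 0%.

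The next differences toward CH12F3 were smaller. At chr8:97300001-97310000 the values were 55.0% and 38.6% in CH12F3 and 0%, 1.66% and 1.47% in spleen, with 47.1% and 0% in unstimulated CH12F3. At chr14:47500001-47510000 CH12F3 had 35.2% and 16.9% and spleen 0%. At chr11:3000001-3010000, near the start of the chromosome, CH12F3 had 23.6% and 25.3% and spleen 0%. Top Rad21 peaks split likewise, with 26.7% to 36.1% in CH12F3 and 0% in spleen. Without stimulation, top NIPBL peaks covered 10.99%, 12.7% and 0% of this bin in spleen and 39.9% and 24.2% in CH12F3. All deposited NIPBL peaks covered 15.4% ± 4.46 in stimulated spleen and 39.2% ± 0.523 in stimulated CH12F3. All deposited Rad21 peaks covered 37.3% ± 10.8 and 46.0% ± 5.43. At chr1:85330001-85340000 all libraries were covered, with 35.7% and 26.2% in CH12F3 and 6.38%, 6.71% and 7.18% in spleen. The splenic peaks in it were narrower, 638 to 718 bp against 2619 and 3570 bp, and had higher authors' fold enrichments in their own lists, 15.6 to 18.9 against 9.46 and 9.69. Unstimulated spleen had 19.3% ± 6.88 there (SD, n = 3) and unstimulated CH12F3 13.3% ± 8.58 (SD, n = 2). At chr4:133670001-133680000, CH12F3 had 39.3% and 30.6% and spleen 0%, 13.8% and 10.4%, a difference that turned toward spleen with 40000 peaks (11.9 points), with all deposited peaks (4.32 points) and with peaks of 200 bp or more (12.9 points).

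**Figure D4:**
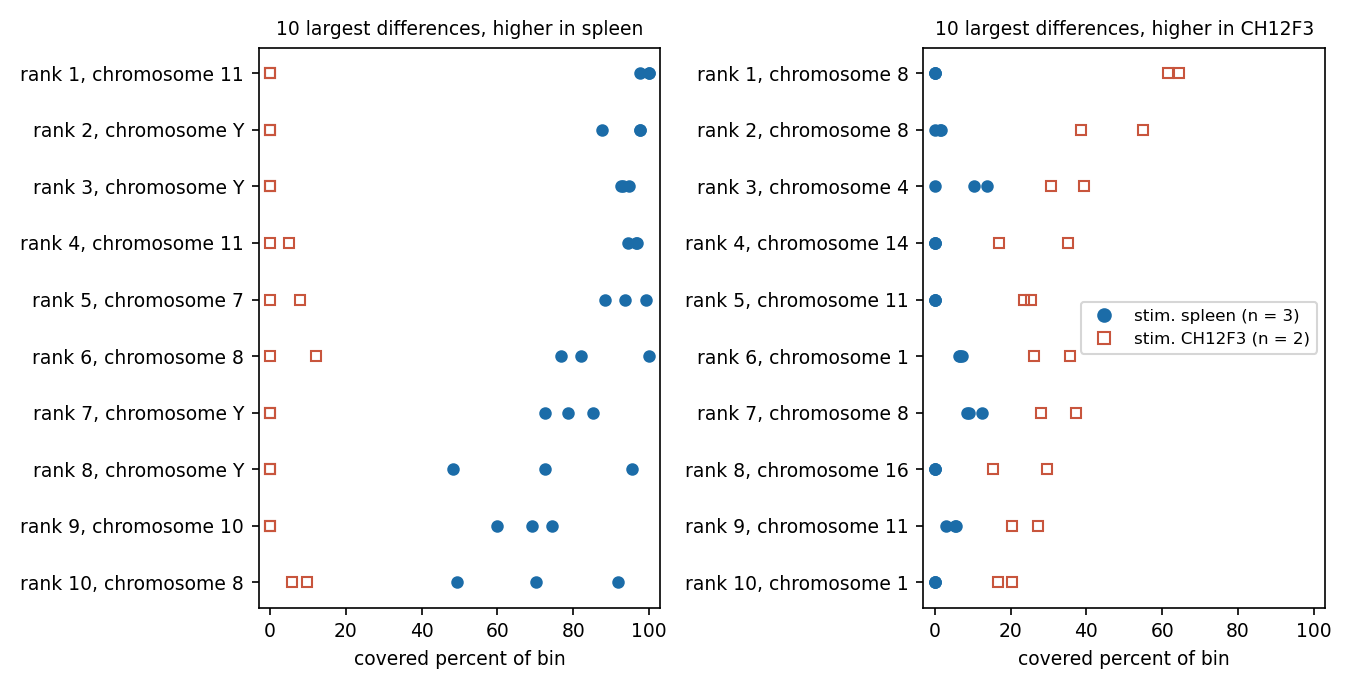
Percent of the bin covered by top NIPBL peaks in each of the 3 splenic (blue circles) and 2 CH12F3 libraries (open red squares), for the 10 called bins with the largest difference in each direction, on the same scale. The splenic differences reach 99.2 points and the CH12F3 differences 63.1 points, and the groups do not overlap in any of the 20 bins.

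Because the counts moved with the width of the peaks, the calls were also counted that were made again at equal covered length, with every peak set to 1 kb and with peaks of at least 200 bp, and whose groups did not overlap with all deposited peaks. They were 35 of the 3454 bins higher in spleen (1.01%) and 16 of the 225 higher in CH12F3 (7.11%). Equal length tested only 1086 of the 3454 and 142 of the 225, so these shares do not compare the directions. The bins named next were chosen after their values were seen. At chr19:23210001-23220000 the splenic libraries had 30.0%, 26.4% and 34.1% with stimulation and 33.8%, 30.6% and 33.8% without. The CH12F3 libraries had 0% with stimulation and 0.52% and 0% without. At chr7:139500001-139510000 the stimulated splenic libraries had 22.3%, 20.4% and 22.5% and all 4 CH12F3 libraries 0%. At chr15:75810001-75820000 they had 18.7%, 15.1% and 20.2%, again with 0% in all 4 CH12F3 libraries. On the CH12F3 side, chr19:6320001-6330000 had 16.7% and 19.9% with stimulation, 31.8% and 26.3% without, and 0% in all 6 splenic libraries. Smaller but alike were chr4:45730001-45740000, with 6.39% and 7.94%, and chr11:54100001-54110000, with 7.45% and 6.13%. In 23 of the 35 and 7 of the 16 the 10 NIPBL libraries, stimulated or not, separated fully by cell source, as did 4.11% and 0.471% of all tested bins in the same direction; the stimulated libraries of these bins were apart by the way they were picked. No stimulated Rad21 library had a top peak in 24 of the 35 and in 13 of the 16, against 65.2% of all tested bins.

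Of the 10 bins most covered in all 5 libraries, limma called 1. The 4 bins of chr9:3000001-3040000 were covered to 83.05% or more in each of the 5 libraries and in the unstimulated libraries. Top Rad21 peaks covered them to 83.11% or more in all 7 stimulated Rad21 libraries, so this cover was not particular to NIPBL. At chr6:47690001-47700000 spleen had 65.7%, 60.6% and 61.1% and CH12F3 71.7% and 61.4%, with 0% in 6 of the 7 stimulated Rad21 libraries. At chrX:166440001-166450000 spleen had 60.3%, 64.9% and 66.3% and CH12F3 70.4% and 70.0%, which did not pass (limma adjusted p = 0.256). The called bin was chr8:56200001-56210000, where spleen had 79.96%, 84.0% and 87.0% and CH12F3 62.4% and 62.0% (difference 21.5 points, SE 3.11, limma adjusted p = 0.0132). With 1 kb windows that difference turned to -6.25 points.

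The share of top peaks on a chromosome did not overlap between the groups for 14 chromosomes, 10 with spleen above and 4, chromosomes 1, 3, 14 and 16, with CH12F3 above. Chromosomes 1 and 3 held 6.46% and 5.02% in spleen and 7.91% and 6.52% in CH12F3 on average, and in unstimulated cells 7.08% and 5.84% against 7.17% and 5.73%. Chromosome 14 held 3.65% ± 0.0580 of the top peaks in spleen (SD, n = 3) and 5.93% and 4.96% in CH12F3. Chromosome 16 held 3.46% ± 0.0369 in spleen and 5.08% and 4.24% in CH12F3. With spleen above, the largest differences were on chromosome 11, with means of 7.66% against 6.34%, and chromosome 7, with 6.70% against 5.49%. Chromosome 19 had 2.94% against 1.99%. Without stimulation the order on chromosome 11 was reversed, at 6.82% in spleen against 7.56% in CH12F3 (8.915% and 6.2% by replicate). Chromosomes 7 and 19 kept their order without stimulation, at 6.19% against 5.55% and 2.695% against 2.31%. Each of the 14 had an exact permutation p of 0.1 and an adjusted p of 0.15. Unstimulated cells showed the same order on chromosomes 14 and 16, with means of 3.75% and 3.52% in spleen and 5.58% and 4.77% in CH12F3. So did Rad21 after stimulation, with 3.55% to 3.84% on chromosome 14 in spleen against 4.64% to 4.89% in CH12F3. Of the bins tested on chromosomes 14 and 16, 8.31% and 9.54% were called higher in spleen, against 20.3% over the genome, and 2.62% and 3.02% were called higher in CH12F3, against 1.32%. On chromosomes 19, 7 and 11, 29.4%, 22.9% and 17.4% were called higher in spleen. Chromosome copy number in the line was not measured, and its part in these shares was not tested.

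Unstimulated cells, which the choice of bins did not use, were then read at the called bins. Of the 3454 bins higher in stimulated spleen, top peaks covered 90.9%, 74.2% and 77.5% in the 3 unstimulated splenic libraries, against 64.4%, 53.4% and 55.1% of all tested bins. In unstimulated CH12F3 they covered 76.9% in replicate 1 and 20.3% in replicate 2, against 61.7% and 29.2% of all tested bins. The CH12F3 replicates thus differed more from each other at rest than the splenic ones did. Their widths differed likewise, with medians of 664 and 129 bp, and the replicate 2 list again names a control; the part of either in these counts was not tested. All 3 unstimulated splenic libraries were above both unstimulated CH12F3 libraries in 727 of the 3454 bins (21.05%), against 10.3% of all tested bins, and below both in 54. All 6 splenic libraries were above all 4 CH12F3 libraries in 528 (15.3%). Every called bin has its stimulated libraries apart by selection, and of the 5356 tested bins with stimulated spleen above CH12F3, 698 (13.0%) were apart in all 10 libraries.

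At the 225 bins higher in stimulated CH12F3, top peaks covered 54.2% and 28.9% in unstimulated CH12F3, against 61.7% and 29.2% of all tested bins. In unstimulated spleen they covered 22.7%, 17.8% and 15.6%, against 64.4%, 53.4% and 55.1% of all tested bins. Both unstimulated CH12F3 libraries were above all splenic ones in 30 of the 225 (13.3%), against 4.56% of all tested bins. All 4 CH12F3 libraries were above all 6 splenic ones in 28 (12.4%). Of the 1412 tested bins with stimulated CH12F3 above spleen, 80 (5.67%) were apart in all 10. A fit of the unstimulated libraries alone with limma called 0 of 16556 bins in either direction, with 1121 higher in spleen and 683 higher in CH12F3 at an unadjusted p under 0.05.

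Rad21 in stimulated cells of the same sources lay at the bins higher in spleen about as often as at all tested bins. Top Rad21 peaks covered 18.1% to 24.3% of the 3454 bins in the 7 libraries, against 21.3% to 24.7% of all tested bins. Of the 225 bins they covered 20.4% to 24.9% in spleen and 27.1% to 29.3% in CH12F3. In 65.4% of the 3454 and 61.8% of the 225 no Rad21 library had a top peak, against 65.2% of all tested bins. In the limma fit of Rad21 over 23000 bins, 668 were higher in spleen (2.9%) and 830 in CH12F3 (3.61%). Among the 3454 bins, Rad21 was higher in spleen in 35 (1.01%) and in CH12F3 in 6 (0.174%), against 0.659% and 0.459% of the 16999 bins tested for NIPBL. Among the 225 it was higher in CH12F3 in 6 (2.67%) and in spleen in 1 (0.444%). Of the 3454 bins, 907 were in the Rad21 fit at all, and of the 225, 70.

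**Figure D5:**
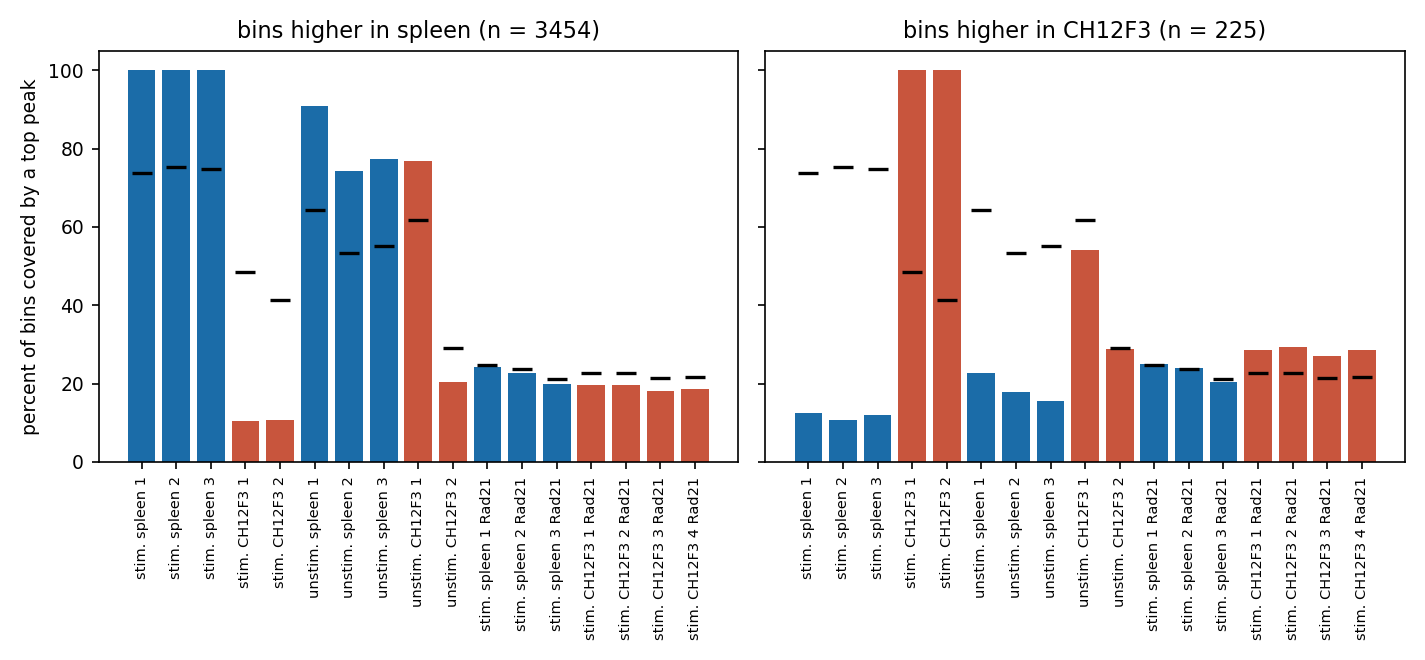
Percent of the 3454 bins higher in stimulated spleen (left) and of the 225 higher in stimulated CH12F3 (right) that hold a top peak in each library, splenic in blue and CH12F3 in red, with black dashes at the percent of all 16999 tested bins. The 5 leftmost bars are the libraries that chose the bins. Unstimulated CH12F3 replicate 1 covers 76.9% of the left set and replicate 2 covers 20.3%, and the Rad21 bars lie near their dashes in the left set.

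Whether stimulation changed the gap between spleen and CH12F3 was tested as an interaction over all 10 NIPBL libraries. Of 30857 bins, limma called 2 with a larger splenic excess after stimulation (0.00648%) and 1 with a smaller one (0.00324%), with 1597 and 1000 at an unadjusted p under 0.05. With the replicate number as a block, 0 and 0 bins were called, so none of the 3 kept its call. At chr9:77390001-77400000 stimulated spleen had 16.6%, 17.6% and 16.2% and unstimulated spleen 0%, whereas stimulated CH12F3 had 0% and unstimulated CH12F3 21.2% and 20.4%. The interaction was 37.6 points (SE 2.26, limma adjusted p = 0.00536). With all deposited peaks every group was covered there, between 21.9% and 26.6% on average, and the difference between the stimulated groups turned from 16.8 to -2.88 points. At chr15:91730001-91740000 stimulated spleen had 29.7%, 29.7% and 29.8% and the other 7 libraries 0%, an interaction of 29.7 points (SE 2.17, limma adjusted p = 0.00816). All deposited peaks covered this bin to 28.3% to 31.3% on average in the 4 groups. At chr14:15180001-15190000 unstimulated spleen had 47.0%, 47.0% and 46.5%, stimulated spleen 8.70%, 7.90% and 9.39%, and all CH12F3 libraries 0%, an interaction of -38.2 points (SE 2.68, limma adjusted p = 0.00816). There, all deposited peaks covered 57.0% ± 1.64 in unstimulated and 45.1% ± 3.74 in stimulated spleen, and 28.2% ± 11.4 and 23.2% ± 0.170 in CH12F3.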

How the data were processed

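NIPBL and Rad21 ChIP-seq peak lists were used, each made from a single library. Bowtie2, MACS2 and the build mm9 are named per the submitters' processing notes, without versions, which are not given in the sources used. For each peak the authors deposited a fold enrichment (a ratio), a -log10 p-value and a -log10 q-value, which served to rank, select or describe peaks inside their own list. CH12F3 replicate 2 names a control in its peak names, with and without stimulation, and the other NIPBL lists used here name none. The lists hold no reads, so depth is unknown and no interval was made from it. They hold no expression either, so the cell sources could not be checked against marker genes. No pair of the 5 lists shared more than 0.495% of top-peak starts, so none was a copy of another. The 5 input samples, the unstimulated Rad21 lists and the i3CBEs lists were not used here.

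Per list, the 20000 peaks of highest -log10 p were kept, leaving out sequences other than the main chromosomes. A 10 kb bin entered a fit when at least 2 of its libraries covered it, and limma 3.58.1 was used (under R 4.3.3, mean-variance trend) on the covered percent, with Benjamini-Hochberg adjustment over all tested bins and a threshold of 0.05. Stimulated, unstimulated and Rad21 libraries were fitted separately, and the interaction over all 10 NIPBL libraries. Single values were compared by two-sided exact permutation tests, whose smallest p is 0.1 for 3 against 2. On simulated data the bin test also called unchanged bins more often than the adjustment allows, so its adjusted p-values may be too small. Alternatives covered the number of peaks, equal covered length, all peaks, a -log10 q of 5 or more, 1 kb windows, ranking by fold enrichment, no filter, array weights, a joint fit and leaving out each library. Peaks of at least 200 bp and overlap by width were added after the data were seen.

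Bins stand in for promoters and gene lists, which need an mm9 annotation, so named bins carry no gene. Those named were the 10 called bins with the largest difference and the 5 longest runs per direction, the 10 bins with the highest minimum coverage over the 5 libraries, up to 5 interaction calls per direction, and the covered IgH bins. The libraries, bins and lists compared were chosen with earlier results of these data known. Regions prone to artefacts were not masked. Coverage, permutation tests and figures were made with scipy 1.17.1, pandas 2.3.3, numpy 2.4.6, statsmodels 0.14.6 and matplotlib 3.10.9 under Python 3.11.15.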

Additional observations from a re-analysis of the deposited data

Results flagged for a closer look

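In 2 of the 22 bins checked, 1 stimulated CH12F3 Rad21 library stood far from the other 3. In the bin at chr10:79610001-79620000 replicate 2 had 3.38% covered and the others 0%, and at chr8:19940001-19950000 it had 38.4% and the others 0%. The limit used marks about 1 in 20 groups by chance where values vary freely, but with the other 3 libraries at 0 any covered library is set apart, whatever its size.

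The gap between spleen and CH12F3 differed with stimulation in 3 bins by the interaction term of the limma fit over 10 libraries. It was 37.6 points at chr9:77390001-77400000, 29.7 points at chr15:91730001-91740000 and -38.2 points at chr14:15180001-15190000. The limma adjusted p-values were 0.00536, 0.00816 and 0.00816, and with the replicate number as a block none of the 3 was called. In each bin the libraries of a group lay within a few points of each other, and with all deposited peaks every group was covered.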

How the results depend on the processing

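The direction split of the calls depended on how peaks were chosen. Bins higher in stimulated spleen numbered 2092 with 40000 peaks, 656 at equal covered length, 127 with all deposited peaks, 151 when peaks had to reach a -log10 q of 5, 1882 with peaks of at least 200 bp (added after seeing the data), 740 in the joint fit and 1754 to 4216 when 1 library was left out, the lowest without CH12F3 replicate 2. Bins higher in CH12F3 numbered 127 with 10000 peaks, 542 at equal length, 117 with all peaks, 3855 with the q filter, 866 with 1 kb windows, 603 ranked by fold enrichment, 515 with peaks of at least 200 bp, 79 without the filter, 440 in the joint fit and 68 to 561 when 1 library was left out, the lowest without CH12F3 replicate 1 and the highest without a splenic library. The median difference over all tested bins moved from 2.24 points to 0.588 at equal length, -0.193 with all peaks and -1.08 with the q filter.

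For the interaction, bins with a larger and a smaller splenic excess numbered 274 and 240 with 10000 peaks, 76 and 15 with 40000, 380 and 435 at equal length, 0 and 0 with all peaks (limma, 11464 and 9134 at an unadjusted p under 0.05), 0 and 0 with the q filter (2544 and 12875), 778 and 698 with 1 kb windows, 146 and 56 with peaks of at least 200 bp, 130 and 66 without the filter, and 2 to 219 and 0 to 35 with 1 library left out, the highest without splenic replicate 1. With the replicate block they numbered 0 and 0 (1447 and 963 at an unadjusted p under 0.05). That block took the CH12F3 libraries whose titles carry no number as replicate 1. No paired analysis was made for stimulated spleen against stimulated CH12F3, which are different cell sources.

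Unstimulated bins higher in spleen and in CH12F3, 0 and 0 in limma, numbered 733 and 150 with 10000 peaks, 772 and 564 at equal length, 87 and 2704 with all peaks, 129 and 761 with the q filter, 741 and 742 with 1 kb windows, and 624 and 468 with peaks of at least 200 bp. IgH bins with spleen above numbered 4 with 10000 peaks, 2 at equal length, 6 with the q filter and 10 to 11 with 1 library left out. Those with CH12F3 above numbered 0 with 10000 peaks or ranked by fold, 2 with all peaks, 3 with the q filter and 1 to 3 with 1 library left out, 3 without either CH12F3 library.

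Overlap within spleen, within CH12F3, of splenic peaks in CH12F3 and of CH12F3 peaks in spleen was 67.6%, 18.9%, 26.9% and 26.8% with 10000 peaks, 32.6%, 11.8%, 15.8% and 15.7% with 40000, 29.2%, 27.4%, 28.0% and 26.9% with all peaks, and 65.1%, 39.4%, 42.7% and 42.8% with peaks of at least 200 bp. Requiring 50% of the peak gave 47.2% within spleen and 13.6% within CH12F3, and 1 kb windows 15.6% within CH12F3.

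Of 734 values for 56 named bins under the alternatives, 581 kept direction and call, 138 fell below the threshold, 5 rose past it and 10 turned. Those that turned were chr8:19970001 (-1.53 at equal length), chr4:133670001 (11.9 with 40000 peaks, 4.32 with all, 12.9 with peaks of at least 200 bp), chr8:56200001 (-6.25 with 1 kb windows), chr9:77390001 (-2.88 with all peaks, -1.35 with the q filter), chr12:114460001 (-5.90 at equal length) and chr12:114480001 (-4.33 with all peaks, -10.5 with the q filter). The causes of these moves were not tested. Promoters, gene lists and their alternatives were planned and not run, for want of an mm9 annotation.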
